A study of Schizophyllum commune with 6 samples.

Results

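Gene expression in a Schizophyllum commune strain that lacks dhc2 was set against that of the wild-type strain 12-43. The comparison used both libraries of the dhc2 knockout and both libraries of 12-43, which are 4 of the 6 libraries of the series, and all 14652 gene models with a deposited value. The knockout has the labelled genotype delta_dhc2 and mating type A3,5 B2,2, and 12-43 is labelled wild type with that same mating type. The remaining libraries, 2 of wild-type strain E6 (A4,6 B2,1), entered the fit for its estimate of spread, and their values are given for orientation. Every library came from mycelium grown for 3 days at 28 °C on cellophane over CYM, a complete medium. The strain labels call the mycelia monokaryons, with 1 type of nucleus, while the protocol speaks of a mating interaction, and the labels do not settle this. They give neither the way in which dhc2 was deleted nor the number of knockout clones, nor do they say that replicates were separate cultures. The p-values below therefore rest on differences between libraries that may be technical. A shared mating type does not make 12-43 the parent of the knockout, so the deletion and the strain background cannot be told apart. Below, rose and fell mean higher and lower in the knockout than in 12-43.

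The labels name dhc2 as a dynein heavy chain gene. Dynein is a motor that moves cargo, nuclei among it, along microtubules towards their minus ends. In matings of this fungus, nuclei of each mate migrate through the hyphae of the other. The B mating-type locus holds genes for lipopeptide pheromones and for the receptors of these and controls that migration, and the A locus encodes homeodomain proteins. Hydrophobins are small secreted proteins that assemble at the interface of cell wall and air and let hyphae grow into the air.

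In the fit of all 6 libraries most of the tested models were called different between the strains, and most called differences were smaller than 2-fold. Of 14652 models, 12484 had enough reads to be tested, and limma called 6827 of them (54.7%) at an adjusted p under 0.05. In the knockout 3470 models rose (27.8%) and 3357 fell (26.9%), and the median log2 difference over all tested models was -0.01. The lower and upper quartiles were -0.43 and 0.49 on the log2 scale. Among the called models 4051 (59.3%) differed by under 2-fold. Calls of at least 2-fold were more often upward, with 1666 models higher (13.3%) and 1110 lower (8.89%). At 4-fold or more 616 were higher (4.93%) and 343 lower (2.75%), and at 16-fold or more 108 were higher (0.865%) and 49 lower (0.393%). Both knockout libraries lay above both 12-43 libraries for 4915 tested models (39.4%) and below both for 4956 (39.7%).

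**Figure D1:**
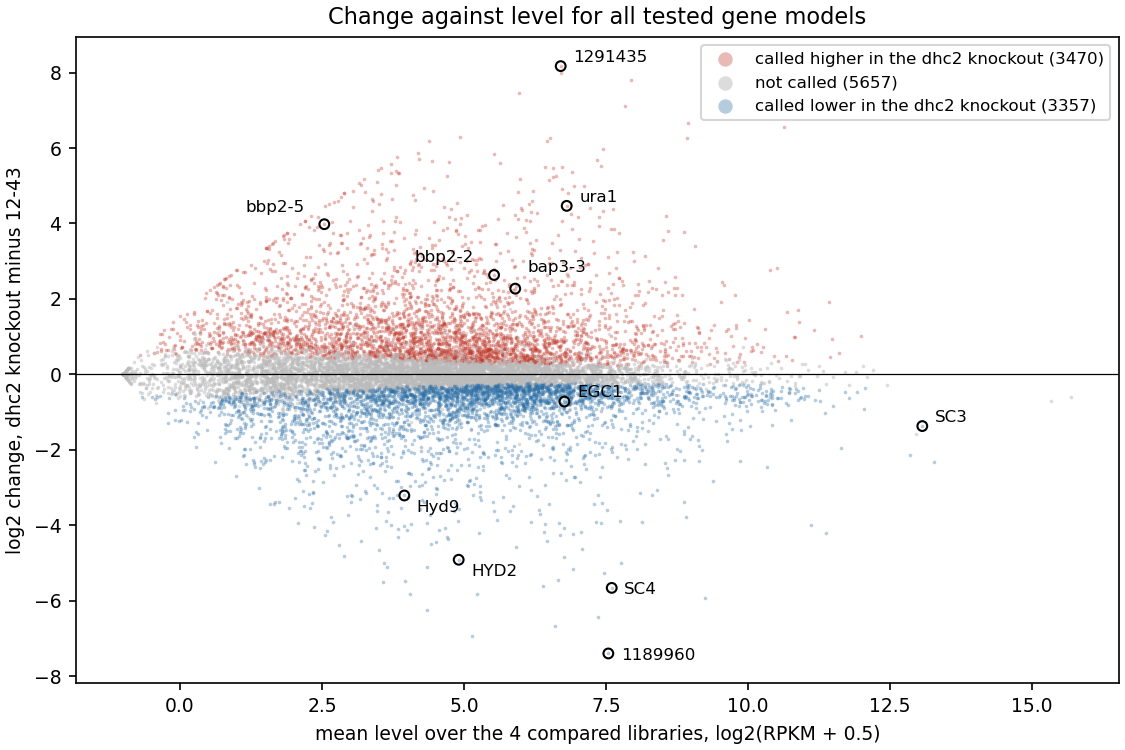
Log2 difference, dhc2 knockout minus wild type 12-43, of the 12484 tested gene models (y axis) against their mean level over the 4 compared libraries (x axis, log2(RPKM + 0.5)). Points are coloured by limma's call, and named genes are labelled; 3470 called models lie above 0 and 3357 below.

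The calls of any size became more frequent and turned downward with level. The tested models were put into 5 classes of equal size by their mean RPKM, which is reads scaled by model length and library depth. In the lowest class 41.7% were called, and 58.3% of those called were higher in the knockout. In the highest class 65.8% were called, and 41.8% of those called were higher. The 3 classes between them had 52.3%, 54.4% and 59.2% called, with 54.6%, 54.6% and 48.8% of the called models higher. The share of models called by at least 2-fold did not increase with level. From the lowest class to the highest it was 22.9%, 27.2%, 22.6%, 17.5% and 21.1%.

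The knockout libraries were closer to each other than the 12-43 libraries were. The SD of log2 values within the group was 0.15 in the knockout, 0.25 in 12-43 and 0.21 in E6. Replicates stood at least 2-fold apart for 48 tested models in the knockout, 234 in 12-43 and 105 in E6. The denominators of the RPKM were 14372979 and 13857189 reads in the knockout and 14054525 and 8769918 reads in 12-43, so 12-43 replicate 2 was the shallowest library. It also differed in the quality reports of the reads, with a GC content of 57%, against 59% in both knockout libraries and in 12-43 replicate 1. An enriched 5-base sequence, GAAGA, was listed for those 3 libraries and not for 12-43 replicate 2. Against 12-43 replicate 1 alone 6255 models were called, and against 12-43 replicate 2 alone 6500.

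The reads of dhc2 itself could not be looked up, because the tables used here pair no identifier with that name. Dynein heavy chains are very long proteins, and the 63 tested models with a coding length of at least 6000 nt, a limit chosen after the values had been seen, were therefore listed. Of these, 19 rose, 4 fell and 40 were not called, against 27.8% higher and 26.9% lower among all tested models. None of them lacked reads in the knockout. The coding length of dhc2 is not given in the sources used here. It may lie below 6000 nt, in which case dhc2 is not in this list. Which of these models, if any, is dhc2 is not known, and which part of it was deleted is not stated. The knockout label was therefore not checked by these values.

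Among these long models 2 fell by at least 4-fold. Model 1121714 (6942 nt) had 82 and 70 reads in the knockout libraries, 8143 and 3801 in 12-43, and 127 and 149 in E6. Its level in E6 was thus near that of the knockout, and 12-43 alone was high (log2 change -5.83, SE 0.17, limma adjusted p = 9.88e-07). Model 65089 (10350 nt) had 604 and 645 reads in the knockout, 5705 and 2706 in 12-43, and 1947 and 2867 in E6, which lay between the compared strains (log2 change -2.87, SE 0.14).

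The 5 long models that rose by at least 4-fold were nearly unread in 12-43, apart from model 1191142. Model 1150513 (9369 nt) had 4597 and 4889 reads in the knockout and 23 and 15 in 12-43 (log2 change 5.72, SE 0.14, limma adjusted p = 6.19e-07). Model 1188906 (9339 nt) had 1462 and 1520 reads in the knockout and 1 and 0 in 12-43, which makes it 2410 times as high relative to depth (exact 95% interval from counting 432 to 95300). Model 1211074 had 1852 and 1876 reads against 27 and 15, and model 1150526 had 1980 and 2056 against 33 and 15. Model 1191142 (7623 nt) was read in both strains, with 2083 and 2090 reads in the knockout and 369 and 166 in 12-43 (log2 change 2.53, SE 0.16). All 5 were read in each E6 library, with 473 to 1452 reads.

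On the fitted log2(RPKM + 0.5) scale ura1 had the largest rise of any gene with a symbol, while by reads alone the low pheromone gene bbp2-5 had a larger ratio. The product of ura1 is orotidine-5'-phosphate decarboxylase, the last enzyme of uridine monophosphate synthesis, and the gene serves as a transformation marker in this species. Its level was 213 and 214 RPKM in the knockout, 7.74 and 10.8 RPKM in 12-43, and 14.7 and 14.2 RPKM in E6. Both knockout libraries were far above all 4 wild-type libraries, and the fitted difference to 12-43 was 22.1-fold (log2 change 4.47, SE 0.17, limma adjusted p = 2.04e-06).

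Hydrophobin genes were lower in the knockout. The symbols give 12 of them, of which 9 were tested: 7 fell (26.9% of all tested models fell), 0 rose and 2 were not called. Their median log2 difference was -1.53, against -0.01 over all tested models, and the range was -5.66 to 0.40. In whole mycelium, fewer cells that make a transcript and less of it per cell cannot be told apart. The hydrophobin genes together held 0.275% and 0.267% of the reads of the denominator in the knockout, 0.629% and 0.806% in 12-43, and 1.23% and 1.30% in E6. The knockout was lowest in this share, and E6 was highest.

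SC3, the hydrophobin of aerial hyphae, set that sum in every library. It was at 4842 and 4704 RPKM in the knockout, 10907 and 13868 RPKM in 12-43, and 21811 and 23009 RPKM in E6. The groups did not overlap, and the difference of the knockout to 12-43 was 2.59-fold downward (log2 change -1.37, SE 0.19, limma adjusted p = 0.000778). Without SC3 the summed level of the hydrophobins was 53.7 and 47.2 RPKM in the knockout, 407 and 697 RPKM in 12-43, and 55.3 and 50.8 RPKM in E6. In this sum 12-43 stood alone, and the knockout was at the level of E6.

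SC4, which lines air channels in fruiting bodies and is known as a gene of the dikaryon, made up most of that remainder in 12-43. It was at 8.08 and 5.37 RPKM in the knockout, 251 and 509 RPKM in 12-43, and 3.23 and 3.66 RPKM in E6. Of the 3 strains 12-43 alone was high, and replicate 2 was its higher library. The fitted difference was 50.6-fold (log2 change -5.66, SE 0.34, limma adjusted p = 1.36e-05), and it was -5.11 against 12-43 replicate 1 alone and -6.21 against 12-43 replicate 2 alone.

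SC1, also known from the dikaryon, was at 12.7 and 12.3 RPKM in the knockout and 29.8 and 57.7 RPKM in 12-43, where replicate 2 was again the higher one (log2 change -1.70, SE 0.31, limma adjusted p = 0.00279). HYD2 had 4 and 12 reads in the knockout and 347 and 155 reads in 12-43, and its level in E6 was 16.8 and 12.3 RPKM against 66.9 and 47.9 RPKM in 12-43. The knockout was therefore below E6 for this gene, unlike for SC4 (log2 change of the knockout against 12-43 -4.92, SE 0.37, limma adjusted p = 3.45e-05). Hyd9 was at 2.68 and 2.08 RPKM in the knockout, 18.5 and 36.6 RPKM in 12-43, and 0.696 and 0.493 RPKM in E6, and it fell by 3.21 on the log2 scale (SE 0.33).

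The smaller falls were those of Hyd5 and Hyd1. Hyd5 was at 6.88 and 4.76 RPKM in the knockout and 15.1 and 20.1 RPKM in 12-43 (log2 change -1.53, SE 0.23), and E6 lay at 13.5 and 10.7 RPKM. Hyd1 was at 2.22 and 2.09 RPKM in the knockout and 7.01 and 5.62 RPKM in 12-43 (log2 change -1.36, SE 0.31, limma adjusted p = 0.00858).

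Hyd4 and SC6 did not pass the test. Hyd4 was at 14.97 and 11.6 RPKM in the knockout and 14.0 and 14.9 RPKM in 12-43, so the 12-43 values lay within the knockout's (log2 difference -0.13, SE 0.27). SC6, another hydrophobin, was at 3.49 and 5.04 RPKM in the knockout and 2.68 and 3.47 RPKM in 12-43 (log2 difference 0.40, SE 0.22). Hyd3, Hyd7 and Hyd8 had too few reads to be tested: at most 7 in any knockout library, 8 in any 12-43 library and 10 in any E6 library.

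**Figure D2:**
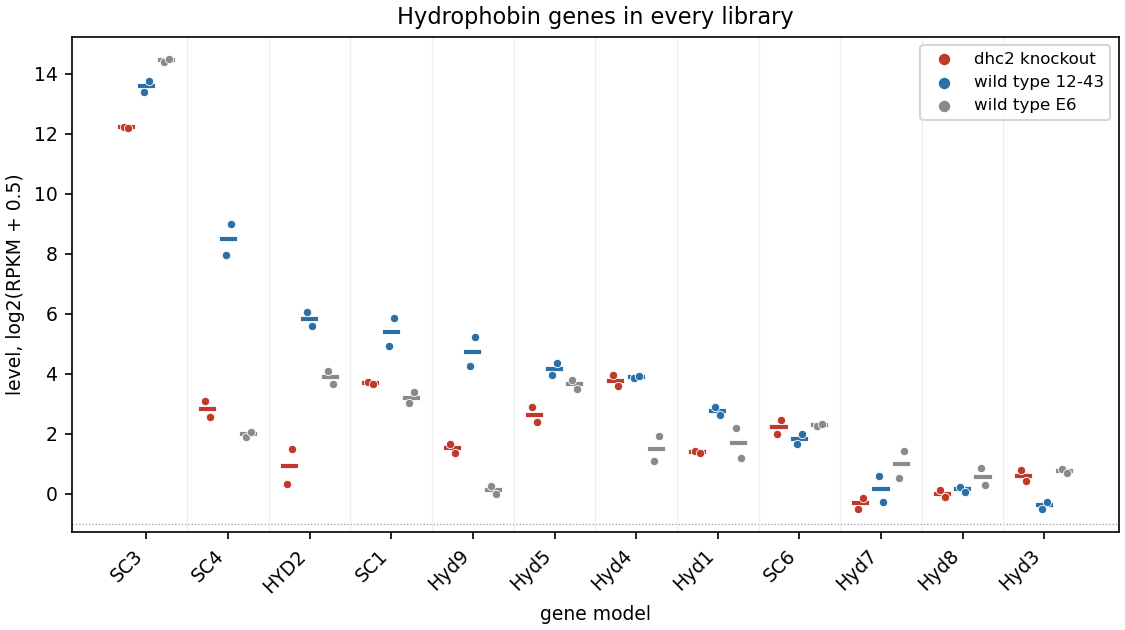
Level of the 12 hydrophobin genes (x axis) in each library (points, y axis, log2(RPKM + 0.5)), with the dhc2 knockout left of wild type 12-43 and E6 and a bar at each group's mean. SC4 is at 8.08 and 5.37 RPKM in the knockout and at 251 and 509 RPKM in 12-43, while Hyd4 overlaps between these strains.

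Genes of the B mating-type locus were mostly higher in the knockout. Of 14 genes with such a symbol 13 were tested: 10 rose (27.8% of all tested models rose), 1 fell and 2 were not called. Their median log2 difference was 1.48, against -0.01 over all tested models. The list and its genes had been looked at in these data before, so the count describes them and does not stand as separate support. Pheromone genes are very short and lie in families, and reads shared between close copies leave the value of any single copy uncertain.

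The 8 tested pheromone genes rose by 1.26 to 3.98 on the log2 scale, with a median of 2.07. The summed level of all pheromone genes was 340.3 and 336 RPKM in the knockout, 86.3 and 77.1 RPKM in 12-43, and 17.2 and 18.2 RPKM in E6. The groups were well apart, and each pair of replicates was close. E6 is labelled B2,1 rather than B2,2, so these models need not cover its own pheromone genes. Its sum is therefore no measure of its pheromone expression. The highest of the pheromone genes in the knockout was bap3-3, at 93.9 and 103 RPKM. It was at 21.5 and 18.4 RPKM in 12-43 and 13.0 and 8.41 RPKM in E6 (log2 change 2.27, SE 0.19, limma adjusted p = 6.63e-05). Its symbol comes from the reference strain and carries a specificity that the label B2,2 does not give. Whether its reads came from another allele or gene was not tested.

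The pheromone genes named bbp2, after the specificity that the labels give to the knockout and to 12-43, ordered differently in the compared strains. In 12-43 bbp2-1 led with 30.1 and 27.8 RPKM, followed by bbp2 251507 with 15.3 and 15.4 RPKM and bbp2-2 with 13.7 and 10.9 RPKM. In the knockout bbp2-2 was at 82.6 and 75.4 RPKM and bbp2-1 at 70.9 and 69.7 RPKM, close to each other, with bbp2 251507 at 50.8 and 43.5 RPKM. The rise was therefore 6.21-fold for bbp2-2 (log2 change 2.63, SE 0.27, limma adjusted p = 0.000165), 2.99-fold for bbp2 251507 and 2.39-fold for bbp2-1 (log2 change 1.26, SE 0.12, limma adjusted p = 0.000131). Whether these rises differ from one another was not tested.

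The other pheromone genes had few reads in 12-43. The gene bbp2-8 was at 26.4 and 23.8 RPKM in the knockout and 4.54 and 2.02 RPKM in 12-43 (log2 change 2.83, SE 0.48, limma adjusted p = 0.00194). The gene bbp2-5 had 38 and 44 reads in the knockout and 0 and 1 in 12-43, 66.3 times as high relative to depth (exact 95% interval from counting 11.6 to 2650). The copy bbp2 17248 had 14 and 16 reads in the knockout and 2 and 2 in 12-43, 6.06 times as high (exact 95% interval from counting 2.14 to 23.7). All 3 had at most 3 reads in any E6 library.

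The gene bbp2-6 was the weakest of the pheromone calls. It had 11 and 18 reads in the knockout, 3 and 3 in 12-43, and 10 and 28 in E6, so that it was the pheromone gene for which the knockout was not above E6 (log2 change 1.48, SE 0.36, limma adjusted p = 0.0106). The call was lost without knockout replicate 2 (limma adjusted p = 0.071). The remaining pheromone gene, bap3-1, was listed at 0 in all 6 libraries.

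The receptors and receptor-like genes differed less. The receptor gene bbr2 was at 26.5 and 27.8 RPKM in the knockout and 18.9 and 12.5 RPKM in 12-43 (log2 change 0.79, SE 0.19, limma adjusted p = 0.0111). In E6, which is labelled with another second B specificity, it was at 0.0575 and 0.122 RPKM. Its call was lost without knockout replicate 1 (limma adjusted p = 0.0563) and without knockout replicate 2 (0.0693). The receptor gene bar3 was at 8.99 and 7.94 RPKM in the knockout and 11.8 and 10.1 RPKM in 12-43. Its log2 difference of -0.35 (SE 0.14) was not called (limma adjusted p = 0.0624), though it was with voom on the recovered reads (0.0363). The symbol bar3 also carries a specificity that the labels give to neither compared strain. Whether its reads came from another allele or gene was not tested.

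The receptor-like gene brl1 rose, with 12.8 and 12.4 RPKM in the knockout and 6.75 and 4.95 RPKM in 12-43 (log2 change 1.05, SE 0.17, limma adjusted p = 0.00175). The receptor-like gene brl3 was the B gene that fell, with 100.4 and 102.8 RPKM in the knockout and 150.1 and 127 RPKM in 12-43 (log2 change -0.45, SE 0.088, limma adjusted p = 0.00407). It was nonetheless the receptor gene with the highest level in the knockout. The receptor-like gene brl4 was at 31.9 and 31.1 RPKM in the knockout and 37.9 and 29.7 RPKM in 12-43, and its values overlapped (log2 difference -0.10, SE 0.12).

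**Figure D3:**
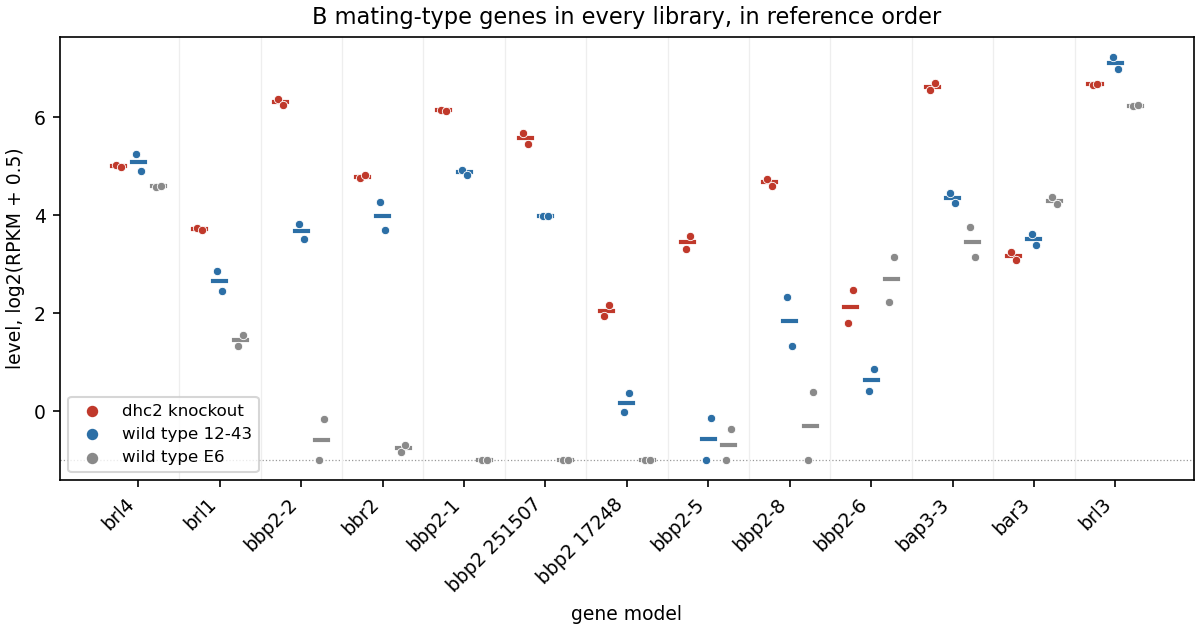
Level of the tested B mating-type genes in each library (points, y axis, log2(RPKM + 0.5); dotted line at a value of 0 RPKM), with the dhc2 knockout left of wild type 12-43 and E6 and a bar at each group's mean. The pheromone genes lie higher in the knockout, the receptor gene bbr2 by 1.73-fold, and brl3 lies lower.

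Models without a symbol that lie between brl1 and brl3 in the reference strain H4-8 are given as a description. Of 10 such models 7 were tested: 3 rose, 2 fell and 2 were not called, against 27.8% higher and 26.9% lower among all tested models. So few models allow no comparison of these shares. Model 60526, of 171 nt, was at 105.8 and 103 RPKM in the knockout and 14.98 and 12.7 RPKM in 12-43 (log2 change 2.87, SE 0.42, limma adjusted p = 0.00101). It had 0 and 2 reads in E6. Model 17256 rose by 0.77 (SE 0.098) and model 1238579 by 0.44 (limma adjusted p = 0.0341), a call lost against 12-43 replicate 1 alone (0.104) and replicate 2 alone (0.0759). Model 1238661 was at 3.81 and 2.99 RPKM in the knockout and 16.9 and 16.7 RPKM in 12-43 (log2 change -2.16, SE 0.17), and model 112482 fell by 1.28 (SE 0.17).

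Neighbours in the reference order were searched for runs of models called in the same direction. Most identifiers had no match in that order, which can break runs. The number of runs therefore does not measure how often neighbours changed together. Only 688 neighbouring pairs had both models matched and tested. Among them 4 runs of at least 4 models were called in the same direction. The longest, of 6 models, was bbp2-2, 1238579, bbr2, bbp2-1, bbp2 251507 and 60526, all higher in the knockout by 0.44 to 2.87 on the log2 scale. A run of 5 higher models ended in the long model 1150513 and spanned 0.85 to 5.72. There were 0 runs of 4 or more in which each model differed by at least 4-fold. The order is that of H4-8 and may differ in the strains studied here.

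Regulators of fruiting-body formation were at similar levels in both strains. Of 8 tested genes 0 rose (27.8% of all tested models rose), 1 fell (26.9% of all fell) and 7 were not called, and their median log2 difference was 0.05. The gene that fell was WC2, the partner of the blue-light receptor WC1, at 20.4 and 21.5 RPKM in the knockout and 29.3 and 23.9 RPKM in 12-43 (log2 change -0.34, SE 0.11, limma adjusted p = 0.0356). The call was lost without any 1 library other than 12-43 replicate 2 (limma adjusted p from 0.0569 to 0.182) with only the 4 compared libraries in the fit (0.0625) and with unscaled RPKM (0.0602). WC1 itself was at 15.7 and 15.9 RPKM in the knockout and 13.2 and 12.5 RPKM in 12-43, a log2 difference of 0.28 (SE 0.12) that was called only with voom (adjusted p = 0.0334).

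The transcription factor gene c2h2 was at 27.3 and 24.4 RPKM in the knockout and 35.8 and 28.3 RPKM in 12-43 (log2 difference -0.31, SE 0.13). It was not called (limma adjusted p = 0.0788), but was against 12-43 replicate 1 alone (0.0336). The log2 differences of the transcription factor genes Bri1, Fst4, Gat1, Fst3 and hom1 lay between -0.14 and 0.15, with SEs of 0.094 to 0.15. Among these, Gat1 had the highest level, with a mean of 141 ± 6.93 RPKM in the knockout and 155 ± 0.181 RPKM in 12-43 (SD, n = 2 each).

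Of the laccase genes, whose products oxidise phenols, Lcc1 was at 0.902 and 1.11 RPKM in the knockout, 0.439 and 0.422 RPKM in 12-43, and 5.76 and 6.40 RPKM in E6 (log2 change 0.68, SE 0.17, limma adjusted p = 0.0126). All 4 values of the compared strains were low, and the call was lost without knockout replicate 2 (limma adjusted p = 0.0907). Lcc2 was at 1.79 and 0.881 RPKM in the knockout and 1.19 and 1.10 RPKM in 12-43, and its groups overlapped. Among other genes with a symbol EGC1 was at 83.5 and 80.3 RPKM in the knockout and 128 and 142 RPKM in 12-43 (log2 change -0.72, SE 0.10, limma adjusted p = 0.000779). CFS2 was at 1.33 and 1.38 RPKM in the knockout and 2.55 and 2.59 RPKM in 12-43 (log2 change -0.73, SE 0.18, limma adjusted p = 0.0121), a call lost without either knockout library (0.0662 and 0.0587).

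The largest fitted differences, among called models with a mean of at least 20 RPKM in the higher strain, were those of models without a name in the tables used here. They are ranked on the log2(RPKM + 0.5) scale, which shrinks the change of low genes, so that by reads alone models 1188906 and 1048102 changed by larger ratios than some of those ranked here. Among the rises, model 1291435 (1152 nt) was at 216 and 198 RPKM in the knockout and 0.124 and 0.297 RPKM in 12-43, which is 2 and 3 reads. Relative to depth it was 1090 times as high in the knockout (exact 95% interval from counting 467 to 3360). E6, at 101.5 and 106 RPKM, was closer to the knockout than to 12-43.

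Model 1211065 was at 216 and 200.5 RPKM in the knockout, 0.311 and 0.299 RPKM in 12-43, and 158 and 164.5 RPKM in E6, the same order of strains (knockout over 12-43: log2 change 8.0, SE 0.099, limma adjusted p = 9.24e-08). Model 1138518 was at 126 and 121 RPKM in the knockout, 0.154 and 0.247 RPKM in 12-43, and 71.2 and 51.7 RPKM in E6. Model 1093152, the highest of these in the knockout, was at 458 and 519 RPKM in it, 1.72 and 1.65 RPKM in 12-43, and 9.44 and 5.20 RPKM in E6 (log2 change 7.79, SE 0.24, limma adjusted p = 1.08e-06). For model 1093152, unlike the other 3, E6 was far below the knockout.

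Among the falls, model 1189960 (396 nt) was at 1.93 and 1.46 RPKM in the knockout, 395 and 344 RPKM in 12-43, and 28.0 and 22.7 RPKM in E6 (log2 change -7.40, SE 0.15, limma adjusted p = 5.87e-07). Model 1100973 (432 nt) had 0 reads in both knockout libraries, 229 and 383 in 12-43, and 202 and 219 in E6. Taking 3 reads for each library at 0, it was at least 126-fold lower in the knockout, at least 76.7-fold against 12-43 replicate 1 alone and at least 205-fold against replicate 2 alone. It was thus read in every wild-type library and in neither knockout library.

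Model 1037942 was at 1.15 and 1.59 RPKM in the knockout, 163 and 219.9 RPKM in 12-43, and 29.0 and 40.4 RPKM in E6 (log2 change -6.68, SE 0.23). Model 1083807 (201 nt) was at 4.15 and 2.15 RPKM in the knockout, 203.5 and 446 RPKM in 12-43, and 192 and 161 RPKM in E6. Its log2 change was -6.43 (SE 0.40, limma adjusted p = 1.53e-05), and -5.82 against 12-43 replicate 1 alone and -7.03 against 12-43 replicate 2 alone. Each of these 4 models was higher in each E6 library than in either knockout library.

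**Figure D4:**
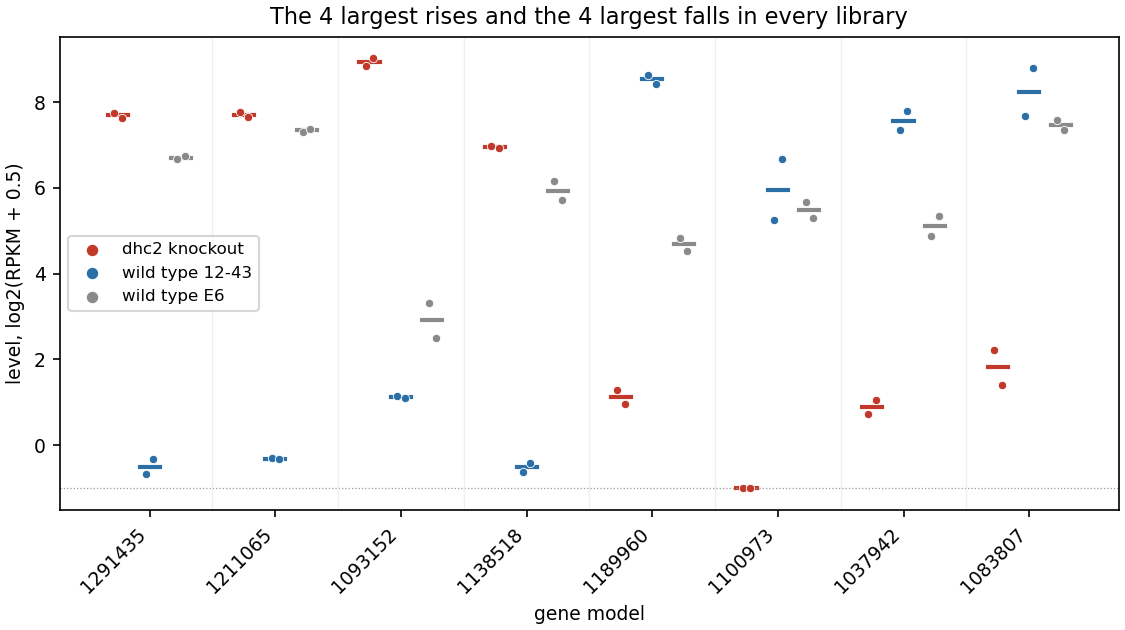
Level in each library (points, y axis, log2(RPKM + 0.5); dotted line at a value of 0 RPKM; bars at group means) of the 4 models with the largest rise and the 4 with the largest fall on that fitted scale, among those with a mean of at least 20 RPKM in the higher strain, with the dhc2 knockout left of wild type 12-43 and E6. Model 1093152 is at 458 and 519 RPKM in the knockout and below 10 RPKM in all wild-type libraries, and model 1100973 has 0 reads in both knockout libraries.

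Some models had reads in 1 strain only. There were 214 models with reads in 12-43 and none in either knockout library, and 276 with reads in the knockout and none in 12-43, while 1107 had none in both. Most of these had few reads. With at least 10 reads in each library of the expressing strain, 8 models were read in 12-43 only and 39 in the knockout only. A value of 0 allows up to 3 reads in a library, so these models need not be silent. The count of 39 became 66 without 12-43 replicate 1, and the count of 8 became 13 and 15 without knockout replicates 1 and 2.

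Of the 8 models without reads in the knockout, model 1048102 (2004 nt) had the most reads in 12-43, 1382 and 527, and also had 0 in E6. It was at least 394-fold lower in the knockout. Model 1082538 had 478 and 220 reads in 12-43 and 1 and 0 in E6, at least 144-fold lower in the knockout. Model 1100973 was the one of the 8 with more than 1 read in any E6 library.

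Of the 39 models without reads in 12-43, model 1203041 (1134 nt) led with 437 and 431 reads in the knockout and 140 and 210 in E6, at least 117-fold higher in the knockout. Model 1321565 had 368 and 349 reads in the knockout and 200 and 290 in E6, at least 96.6-fold higher. All but 1 of the 39 also had reads in both E6 libraries, the exception being model 1205100 with 16 and 13 reads in the knockout. Whether the sequence of such models is present in 12-43 was not tested.

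Some of the most abundant models were uneven between the 12-43 libraries. Model 1193825 (396 nt) was at 37556 and 38637 RPKM in the knockout, 32685 and 102666 RPKM in 12-43, and 122243 and 59718 RPKM in E6. The knockout values lay between those of the 12-43 libraries, and the model was not called (log2 difference -0.61, SE 0.59, limma adjusted p = 0.414). Model 1057308 (159 nt) was at 27325 and 30479 RPKM in the knockout, 28036 and 79270.4 RPKM in 12-43, and 78676 and 38515 RPKM in E6. Models 1193825 and 1057308 were thus uneven between the E6 libraries as well. Model 1111327 (153 nt) was at 2578 and 3401 RPKM in the knockout and 3449.7 and 22182 RPKM in 12-43. Models 1057308 and 1111327 stood out in 12-43 replicate 2 and were not called. Against 12-43 replicate 2 alone, all 3 were called lower in the knockout, with log2 changes of -1.48, -1.51 and -2.95.

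Of the abundant models that were called, 82353 (288 nt) was at 3332 and 3210.1 RPKM in the knockout, 14332 and 18548 RPKM in 12-43, and 44855 and 41844 RPKM in E6, the order seen for SC3 (log2 change -2.32, SE 0.20, limma adjusted p = 7.76e-05). Model 85500 (918 nt) was at 5290.0 and 5549 RPKM in the knockout and 2555 and 2783 RPKM in 12-43, close to E6 at 2189 and 2204 RPKM (log2 change 1.02, SE 0.12, limma adjusted p = 0.000386). Models 1184345 and 1116758 differed by -0.30 and 0.11 and were not called.

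The direction of the calls went with the coding length of the models. Of the called models under 600 nt, 40.0% were higher in the knockout (539 of 1347). The share was 47.6% from 600 to 1199 nt, 56.0% from 1200 to 2399 nt, 65.0% from 2400 to 4799 nt, and 80.4% at 4800 nt or more (41 of 51). The median log2 difference over all tested models of a class was small, from -0.127 under 600 nt to 0.114 at 4800 nt or more. All 9 tested hydrophobin genes lay in the class under 600 nt, in which falls were the more frequent call, and so did the pheromone genes, which rose.

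The 12-43 replicates differed with length as well. The median log2 difference of 12-43 replicate 2 minus replicate 1 was 0.105 under 600 nt and -0.15 at 4800 nt or more, while that of the knockout replicates stayed between -0.01 and 0.03 in all 5 classes. Against 12-43 replicate 1 alone the share of called models that were higher was 46.2% under 600 nt and 76.7% at 4800 nt or more, and against replicate 2 alone it was 38.1% and 87.7%. The trend had the same direction against each 12-43 library. Between those classes the median log2 difference went from -0.082 to 0.055 against replicate 1 alone, and from -0.188 to 0.174 against replicate 2 alone. With both 12-43 libraries its shift was no larger than that between the 12-43 replicates. The part of length-dependent differences between libraries in the result was not tested beyond these values.

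**Figure D5:**
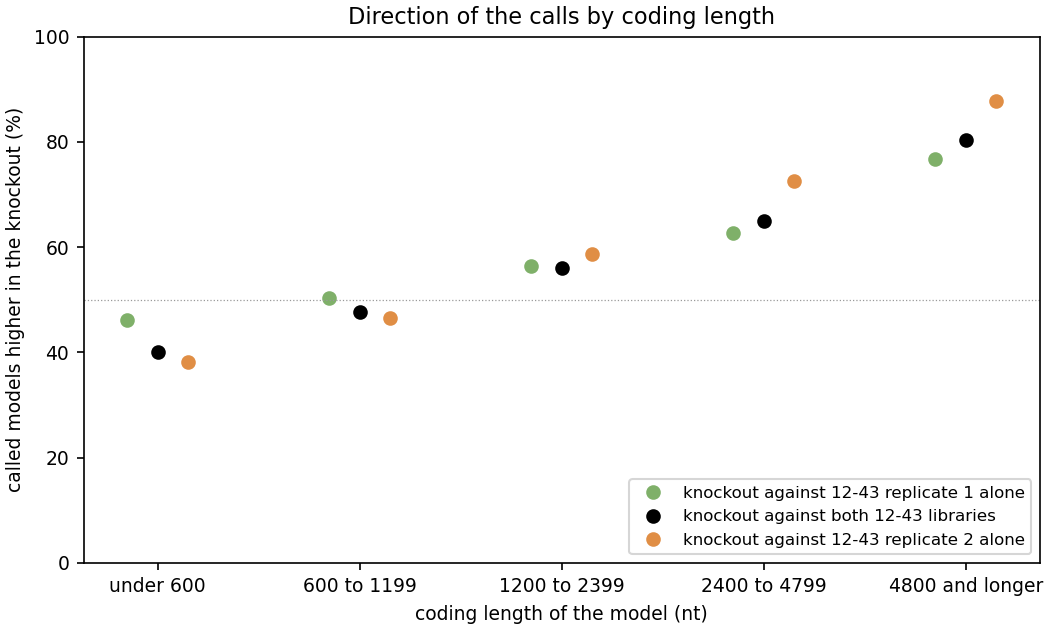
Share of called models that were higher in the dhc2 knockout than in wild type 12-43 (y axis, percent) by coding length of the model (x axis, 5 classes in nt), against both 12-43 libraries (black) and against each one alone (colours). The share is 40.0% under 600 nt and 80.4% at 4800 nt or more with both libraries.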

How the data were processed

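The authors deposited RPKM for each library and gene model, per the file headers, with a decimal comma and with the raw reads' FastQC 0.9.2 report below. TopHat, DESeq and edgeR appear in the submitters' processing notes, without role or version. Read handling, strand, genome build and annotation: not given in the sources used here. Therefore reads of near-identical, overlapping or antisense genes may be split in unknown ways. Libraries were single reads of 50 bases per the labels and 51 per the quality reports.

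The low RPKM values were whole multiples of a step, from which reads, the denominator of each library and coding lengths (multiples of 3 nt) were solved. All 13715 models above 0 came out whole within 0.005 reads plus rounding, and 937 were at 0 throughout. The recovered reads are the smallest whole numbers possible. A value of 0 allows up to 3 reads. Floors and intervals cover counting error only.

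RPKM were divided by trimmed-mean factors (30% of M and 5% of A trimmed; 0.961 to 1.05). Under R 4.3.3, limma 3.58.1 was fitted to log2(RPKM + 0.5) with trended variance, group as the term, all 6 libraries, 3 residual degrees of freedom and Benjamini-Hochberg adjustment over 12484 models at 0.05. These had 0.744 CPM relative to the denominator (10 reads at median depth) in at least 2 libraries and 15 reads in all. Every log2 change, SE and adjusted p is from this fit, and this scale makes fold changes of low genes too small. Each library in the text keeps its deposited RPKM. Voom on the recovered reads was an alternative and called 7112 models. Scripts were tested on simulated data.

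Replicate libraries were further apart than counting noise (mean chi-square per model 2.98 in the knockout, 34.3 in 12-43, 18.7 in E6), so none were merged for the fit. The exact intervals and the folds given as at least a value used the summed reads of both libraries of a strain, unless a replicate is named. They leave out this spread between replicates.

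Named were genes with a symbol in the lists, the 10 largest rises and falls with a symbol of at least 20 RPKM, the 4 largest whatever their name, the 5 most abundant models per strain, ura1 and runs of neighbours. The members and lists were chosen with earlier results of these data known. Long models, models without reads and models between brl1 and brl3 were added after their values were seen. Of 14652 identifiers 3634 matched the RefSeq table of assembly Schco3 (strain H4-8), used for names and neighbours only, and 39 had a symbol. It names no products, so 5 of 20 planned lists had members. These were hydrophobins, B mating type, fruiting regulators, laccases and pyrimidine synthesis (ura1). Gene sequences were not analysed here.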

Additional observations from a re-analysis of the deposited data

How the results depend on the processing

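Over 17 alternatives (scaling, pseudocount, filters, the 4 compared libraries alone, voom, the enriched 5-base sequence as a covariate, a block, and each library left out) the 64 named genes gave 1080 values. None changed direction while called, 1051 kept their side of the threshold, 19 lost and 10 gained a call. Some differences that were not called changed sign, such as that of model 1193825, from -0.61 to 0.26 without 12-43 replicate 2. The number of called models was 5833 of 9951 tested with a mean of at least 5 RPKM, 6268 with the covariate, 6605 with 4 libraries and 7112 with voom, against 6827. Leaving out 1 library gave 4858 to 6627 calls. The fewest calls came when either knockout library was left out. With 1 library left in a strain, that library is assumed to vary like the other groups. The 5-base sequence differed between libraries only within 12-43. Its covariate thus set the knockout against 12-43 replicate 1 alone, nearly the same as leaving out replicate 2, and is no separate check. The log2 change of SC4, for example, was -5.112 with the covariate and -5.108 without replicate 2.

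Replicate numbers did not pair the libraries (correlation of replicate differences 0.0030 between the knockout and 12-43, and 0.0253 at most), and with the replicate number as a block 6590 models were called, of which 6484 were the same models in the same direction. The block left 0 fruiting regulators called lower, against 1, as did unscaled RPKM (0) and the 4 compared libraries alone (0). Voom gave 2 and the covariate 2, and leaving out 1 library gave 0 to 2. Voom also called 1 fruiting regulator higher, against 0, and 2 B genes lower, against 1. Without a filter 1 hydrophobin was called higher, against 0. With a mean of at least 5 RPKM no laccase was tested, so 0 were called higher, against 1, and leaving out 1 library gave 0 to 1. The share of called models under 600 nt that were higher was 45.7% with the covariate and 38.1% to 46.2% with 1 library left out, against 40.0%. Counts of models without reads rest on depth. With 1 library left out they were 106 to 318 for reads in 12-43 only, against 214, and 162 to 460 for reads in the knockout only, against 276. With at least 10 reads they were 9 to 15, against 8, and 43 to 66, against 39. The lowest counts of the first pair came without 12-43 replicate 1 (106) and without knockout replicate 1 (162), and the highest of the second without 12-43 replicate 1 (460). Where no cause is evident from fewer libraries or models, the cause was not tested.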
